A study of Arabidopsis thaliana with 8 samples.

Results

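The 37 genes described here encode arabinogalactan proteins and fasciclin-like arabinogalactan proteins of Arabidopsis thaliana, out of 27634 gene rows measured. They comprise 23 AGP genes, numbered within AGP1 to AGP31, and 14 FLA genes, and FLA11 and FLA12 were set apart from them. The members were chosen by family name from a list of locus IDs, with no threshold on any value. The family itself was selected on earlier results of the same comparison of WT with DLK2-OE1 libraries, so the counts of members past a threshold below are a description and support nothing by themselves. Transcripts were sequenced from rosette leaves of wild-type plants (WT) and of DLK2-OE1, a line overexpressing DLK2 (AT3G24420), which encodes an alpha/beta hydrolase related to the strigolactone receptor D14. Each genotype gave 4 libraries, all from plants aged 24 days that had spent 11 days on plates and then 13 days on soil. The overexpressor is 1 line, its promoter is not named in the labels, and effects of DLK2 and of other differences between that line and WT cannot be told apart. Nothing in the labels ties a replicate to a separate plant, so each p-value below reflects the spread between libraries, which may be technical.

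Arabinogalactan proteins are secreted glycoproteins of the plasma membrane, cell wall and extracellular matrix. Their prolines are hydroxylated, and hydroxyprolines in Ala-Pro, Ser-Pro and Thr-Pro pairs carry large branched chains of galactose and arabinose. Many are tethered to the membrane by a glycosylphosphatidylinositol (GPI) anchor. Classical AGPs consist almost wholly of such a backbone, lysine-rich AGPs add a short basic region, AG peptides keep a very short backbone, and FLAs join AGP stretches to fasciclin domains, which are known in other organisms for cell adhesion.

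The coding sequences of 5 members show the backbone on which this family is defined. AGP4 and AGP7 are the closest pair among the classical AGPs and both rose in DLK2-OE1. AGP22 is the AG peptide that rose, AGP16 is the AG peptide closest to it in protein sequence, and AGP15 had the highest level per length in WT. The lines below were read from the RefSeq TAIR10.1 assembly, 5′ to 3′ on the coding strand, and capitals mark the codons of Ala-Pro, Ser-Pro and Thr-Pro pairs. AGP4 (AT5G10430) lies on the minus strand, chr5:3277936-3278235, and AGP7 (AT5G65390) on the minus strand, chr5:26128976-26129275, each shown as its first 300 coding bases. AGP22 (AT5G53250) lies on the plus strand within chr5:21603715-21604007, AGP16 (AT2G46330) on the minus strand within chr2:19018730-19019108, and AGP15 (AT5G11740) on the plus strand, chr5:3784318-3784503, each shown as its whole coding sequence, joined over 2 exons in AGP22 and AGP16.
AGP4: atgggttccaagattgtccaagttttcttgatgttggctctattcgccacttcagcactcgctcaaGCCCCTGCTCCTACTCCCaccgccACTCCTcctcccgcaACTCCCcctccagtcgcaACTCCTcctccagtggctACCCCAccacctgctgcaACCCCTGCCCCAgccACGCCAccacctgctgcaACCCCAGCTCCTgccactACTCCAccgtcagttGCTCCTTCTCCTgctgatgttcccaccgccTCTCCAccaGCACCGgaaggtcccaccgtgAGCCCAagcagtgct
AGP7: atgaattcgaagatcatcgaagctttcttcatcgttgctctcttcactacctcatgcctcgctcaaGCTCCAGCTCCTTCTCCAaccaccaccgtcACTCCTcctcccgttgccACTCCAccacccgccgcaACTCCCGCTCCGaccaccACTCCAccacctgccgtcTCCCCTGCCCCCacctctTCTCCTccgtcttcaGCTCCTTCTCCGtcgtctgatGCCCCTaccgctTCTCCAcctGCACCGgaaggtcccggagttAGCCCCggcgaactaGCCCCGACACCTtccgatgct
AGP22: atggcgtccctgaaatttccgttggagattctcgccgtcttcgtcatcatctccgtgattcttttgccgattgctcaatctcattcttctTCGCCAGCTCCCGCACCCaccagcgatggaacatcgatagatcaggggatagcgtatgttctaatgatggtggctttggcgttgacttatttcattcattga
AGP16: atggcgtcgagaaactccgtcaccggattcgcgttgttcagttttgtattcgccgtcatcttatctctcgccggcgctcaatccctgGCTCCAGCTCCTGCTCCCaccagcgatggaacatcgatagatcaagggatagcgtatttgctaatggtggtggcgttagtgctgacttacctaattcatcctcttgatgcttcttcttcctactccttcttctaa
AGP15: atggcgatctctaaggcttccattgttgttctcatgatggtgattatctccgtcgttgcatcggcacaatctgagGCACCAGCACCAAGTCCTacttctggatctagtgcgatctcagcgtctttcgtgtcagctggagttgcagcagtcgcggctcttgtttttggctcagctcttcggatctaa

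The stretches of AGP4 and AGP7 hold 18 and 19 marked pairs, spread over all but the first bases, whereas AGP22, AGP16 and AGP15 hold 3 each, in a single block. The AGP4 and AGP7 proteins were 64.7% identical over their alignment, and AGP16 and AGP22 were 51.3% identical. The longest run of identical coding bases was 29 in AGP16 and AGP22 and 15 in AGP4 and AGP7, and neither pair shared any stretch of 50 bases over its transcripts. A read of 50 bases or more that matches one of these genes perfectly therefore had 1 matching place in the genome.

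Across the family, the share of proline, alanine, serine and threonine in the encoded precursor differed between classes. It ran from 53.7% to 72.6% in the 9 classical AGPs, which are 127 to 191 residues long, and from 53.6% to 68.1% in the 3 lysine-rich AGPs. The 9 AG peptides, of 58 to 74 residues, held 38.1% to 50.8%, and the 14 FLAs, of 247 to 489 residues, held 25.8% to 43.1%. The nonclassical AGP30 and AGP31 held 34.3% and 43.5%, and the ranges of several classes overlapped. The median over 27137 genes with a protein of at least 50 residues was 24.9%, and 71 of these genes, or 0.262%, reached 50%, 13 of them members. AGP4, at 72.6%, and AGP9, at 71.7%, had the highest and the next highest share of all 27137.

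**Figure D1:**
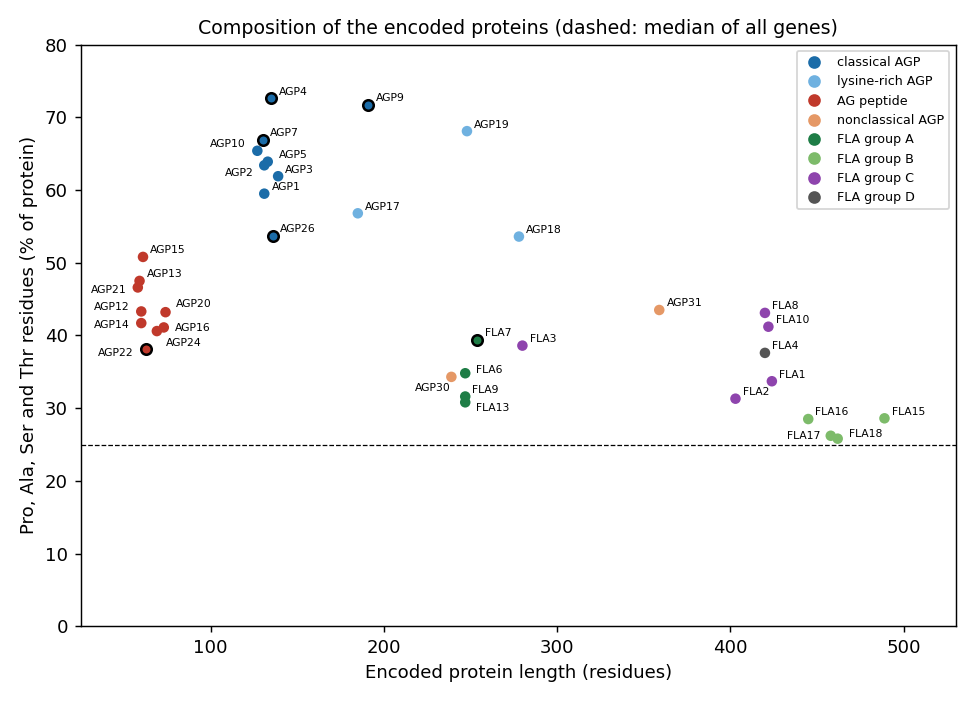
Share of proline, alanine, serine and threonine residues (%, vertical axis) against the length in residues (horizontal axis) of the precursor encoded by each of the 37 members, coloured by class; black rings mark the 6 members that passed the threshold between genotypes, and the dashed line is the median of all genes, 24.9%. AGP4 and AGP9 sit highest, the AG peptides lie at the left, and FLA17 and FLA18 lie nearest to the dashed line.

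Library totals ranged from 18097159 to 22139801 counts. The targeted gene DLK2 had 1025 to 1712 counts in WT and 2400 to 3503 in DLK2-OE1, and its log2 fold change was 0.92 with an SE of 0.12 (edgeR adjusted p = 0.0178). The DLK2-OE1 libraries were not alike: on the first principal component, with 60.3% of the variance, replicates 1 and 2 stood at 61.5 and 87.4, replicates 3 and 4 at 11.2 and -8.16, and WT between -47.5 and -27.7. Results that rest on replicates 1 and 2 are therefore also given without them.

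In WT leaves the family's message was concentrated in a few members. AGP15, an AG peptide gene, had the highest level at 714 ± 112 FPKM (fragments per kilobase of transcript, scaled to depth, a level per length; SD, n = 4). FLA9 (AT1G03870) followed at 264 ± 10.2 FPKM, AGP16 at 244 ± 13.6 FPKM and FLA13 (AT5G44130) at 202 ± 43.2 FPKM. The lowest AGP15 library, at 565 FPKM, lay above every library of the other members, while the library ranges of FLA9 and AGP16, and those of AGP16 and FLA13, overlapped.

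AGP21 (AT1G55330), AGP12 (AT3G13520) and FLA18 (AT3G11700) came next at 137, 117 and 107 FPKM, with overlapping ranges. The 20 further members with a WT mean over 1 FPKM ran from FLA2 (AT4G12730) at 70.4 FPKM down to AGP4 at 3.13 FPKM. The other 10 lay below 1 FPKM, among them AGP30 (AT2G33790) and FLA6 (AT2G20520), which were listed at 0 in all 8 libraries. AGP30 is known from roots and seeds.

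The summed FPKM of the 37 members was 2282 ± 279 in WT and 2534 ± 85.8 in DLK2-OE1 (SD, n = 4 each), and the ranges, 1929 to 2611 and 2435 to 2626, overlapped. Its make-up differed more than its size. AGP15 held 31.2% ± 1.32 of the sum in WT and 19.9% ± 2.41 in DLK2-OE1, from 29.3% to 32.2% and from 17.2% to 22.6%, with no overlap. All AG peptides together held 54.3% ± 1.4 and 45.2% ± 5.68. The classical AGPs summed to 182 ± 57.4 FPKM in WT and 305 ± 78.8 in DLK2-OE1, with overlapping libraries. That overlap comes from AGP2 in WT replicate 1: without AGP2 the sums ran from 142 to 188 FPKM in WT and from 217 to 395 in DLK2-OE1. The FLAs summed to 782 ± 65.7 FPKM in WT and 960 ± 67.8 in DLK2-OE1, with no overlap. In TMM-scaled CPM the FLA sums did overlap, at 893 to 1122 in WT and 1104 to 1256 in DLK2-OE1, and the deposited FPKM places the median of all genes 0.12 to 0.13 log2 units higher in DLK2-OE1. In the order of levels AGP9 (AT2G14890) moved from place 12 in WT to 6 in DLK2-OE1 and AGP31 (AT1G28290) from 25 to 11. Without DLK2-OE1 replicates 1 and 2 their places there were 9 and 21.

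**Figure D2:**
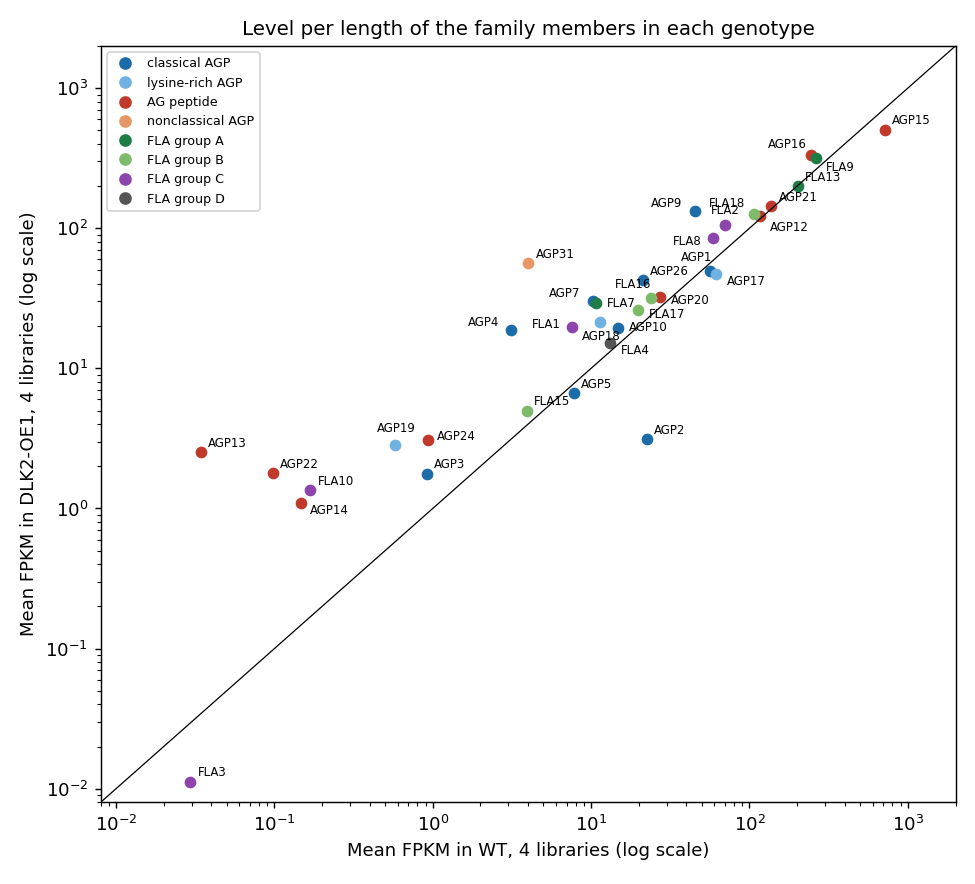
Mean FPKM of each member in the 4 DLK2-OE1 libraries (vertical axis) against its mean in the 4 WT libraries (horizontal axis), both on log scales and coloured by class; the line marks equal levels, and the 2 members listed at 0 are not drawn. AGP15 lies highest and below the line at 714 and 503 FPKM, AGP9, AGP4 and AGP31 lie above it, and AGP2 lies farthest below it. The SDs, left off for legibility, are given in the text for the members it turns on.

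Between genotypes, 6 members rose in DLK2-OE1 and none fell. Those that rose were the classical AGP genes AGP4, AGP7, AGP9 and AGP26 (AT2G47930), the AG peptide gene AGP22 and the fasciclin-like gene FLA7 (AT2G04780). Of the 37 members, 30 had enough counts to be tested, so 24 were tested and not called, and 7 were left out by the filter on low counts. Calls were made with edgeR's quasi-likelihood test and Benjamini-Hochberg adjustment over all 18155 genes tested, at an adjusted p under 0.05. Over all genes 670, or 3.69%, were called, with 2.12% called higher and 1.58% lower, beside 6 of the 30 tested members. At an unadjusted p under 0.05 by edgeR, 11 of the 30 members were higher and 3 lower, where 14.3% of all genes were higher and 12.0% lower. After adjustment DESeq2 and limma-voom called 1 and 0 members lower.

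The 4 DLK2-OE1 libraries lay above all 4 WT libraries in 10 tested members, or 33.3%, and below them in 0, where 7.87% of all tested genes lay above and 7.29% below. The median log2 fold change of the tested members was 0.23 against 0.00 for all genes tested, and 22 members were positive and 8 negative. Since the family was taken up on this contrast, these shares only describe it. A member passes the filter on low counts more easily where DLK2-OE1 is high, so they cover the tested members and not the family.

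**Figure D3:**
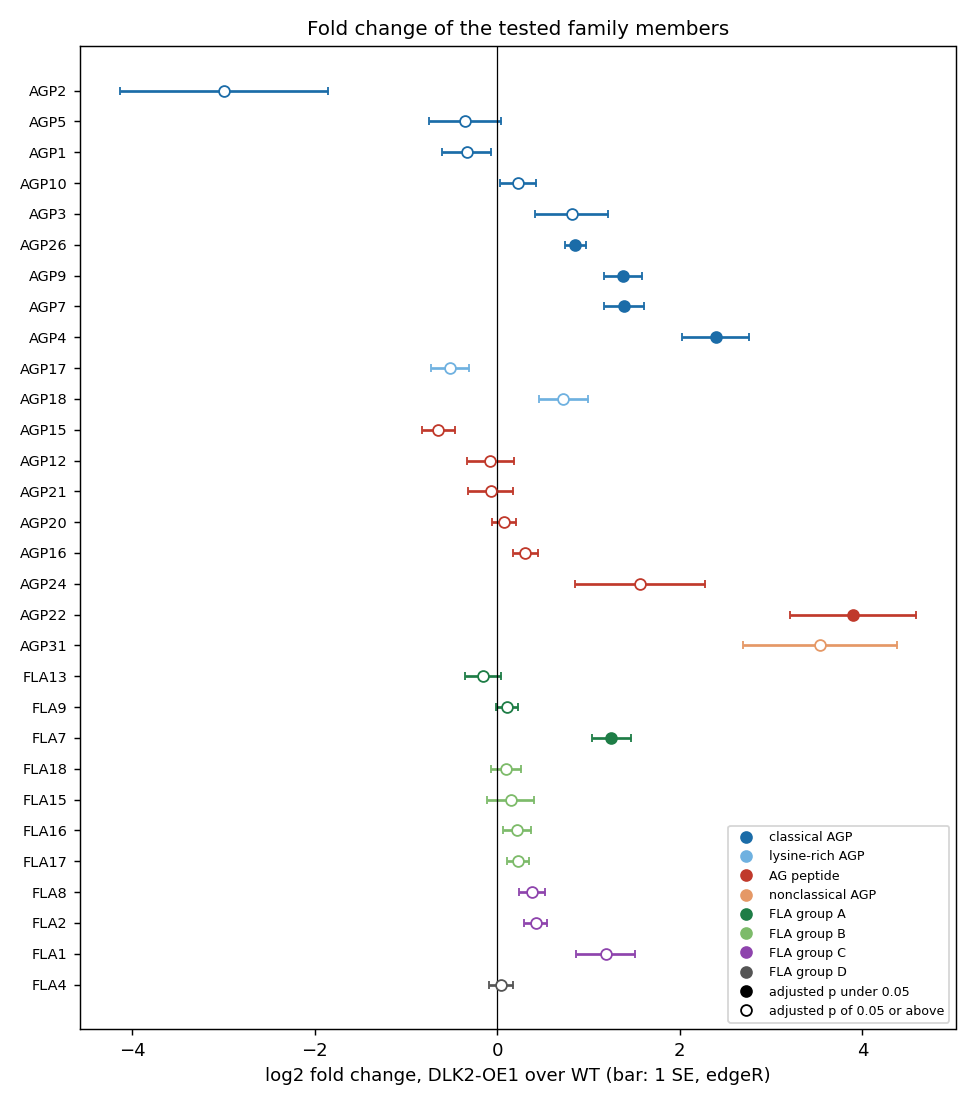
Log2 fold change of DLK2-OE1 over WT for the 30 tested members, by class and in order within it, with bars of 1 SE from the edgeR fit on 4 libraries per genotype; filled points have an adjusted p under 0.05. The 6 filled points run from 0.85 for AGP26 to 3.90 for AGP22, and AGP2, at -2.99, has the widest bar and is open.

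The classical AGPs held 4 of the 6 calls, out of 9 tested members. AGP4, known as JAGGER for its part in blocking the attraction of further pollen tubes to a fertilised ovule, had 2.30, 2.85, 1.99 and 3.16 CPM in WT replicates 1 to 4. It had 20.4, 17.0, 5.84 and 10.9 CPM in DLK2-OE1 replicates 1 to 4, where CPM is the count scaled to the TMM-normalized library size. Every DLK2-OE1 library was higher than every WT library, and replicate 3 was nearest to WT. The log2 fold change was 2.40 (SE 0.37, edgeR adjusted p = 0.0200), or 1.71 without DLK2-OE1 replicates 1 and 2 (adjusted p = 0.0564). It was the one call that limma-voom did not make (adjusted p = 0.0638). In bulk leaf RNA a change in the share of a cell type and a change in the RNA per cell cannot be told apart, here and in what follows.

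AGP7, its closest relative, had 9.02, 7.22, 6.31 and 9.85 CPM in WT and 28.3, 23.9, 17.0 and 15.9 CPM in DLK2-OE1. The genotypes did not overlap, and replicates 1 and 2 were again the highest. The log2 fold change of AGP7 was 1.39 (SE 0.22, edgeR adjusted p = 0.0205), or 1.03 without DLK2-OE1 replicates 1 and 2 (adjusted p = 0.0601).

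AGP9, a longer classical AGP with the highest WT level among the called members, had 42.5, 51.1, 34.8 and 51.7 CPM in WT and 135, 153, 87.0 and 92.3 CPM in DLK2-OE1. The lowest DLK2-OE1 library stood 1.68-fold above the highest WT library. The log2 fold change was 1.38 (SE 0.21, edgeR adjusted p = 0.0200), or 1.00 without DLK2-OE1 replicates 1 and 2 (adjusted p = 0.0544).

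AGP26 rose by less and more evenly. It had 14.6, 18.6, 13.8 and 16.2 CPM in WT and 26.1, 28.9, 27.0 and 32.2 CPM in DLK2-OE1. Unlike in the other called classical AGPs, the highest library was replicate 4 and replicates 1 and 2 did not stand out. For AGP26 the log2 fold change was 0.85 (SE 0.12, edgeR adjusted p = 0.0178), and 0.92 without DLK2-OE1 replicates 1 and 2, still past the threshold (adjusted p = 0.0469). AGP4 and AGP26 each overlap an annotated gene on the opposite strand that has no row in the count tables. Whether counting used strand is not stated in the labels or notes, and reads from such a neighbour cannot be told apart.

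The other 5 classical AGPs were not called. AGP2 (AT2G22470) had 57.3, 0.982, 3.13 and 3.67 CPM in WT and 2.15, 1.93, 1.5 and 2.54 CPM in DLK2-OE1. A single library, WT replicate 1, set it apart, and the remaining 3 WT libraries spanned the DLK2-OE1 range. The fitted log2 fold change was -2.99 (SE 1.14, edgeR adjusted p = 0.142), and -0.36 without WT replicate 1 (adjusted p = 0.652).

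AGP1 (AT5G64310), AGP3 (AT4G40090), AGP5 (AT1G35230) and AGP10 (AT4G09030) had log2 fold changes of -0.34, 0.81, -0.35 and 0.23, with adjusted p from 0.227 to 0.601 by edgeR. Their genotypes overlapped in every case. AGP10 also overlaps an opposite-strand gene with no row in the tables.

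Among the lysine-rich AGPs, AGP17 (AT2G23130), known from root susceptibility to Agrobacterium, had 52.9 ± 12.6 CPM in WT and 36.9 ± 7.96 CPM in DLK2-OE1 (SD, n = 4 each). AGP18 (AT4G37450), known for its part in selecting the functional megaspore, had 9.91 ± 4.16 and 16.3 ± 2.68 CPM (SD, n = 4 each). Their log2 fold changes had opposite signs, -0.52 and 0.72, and neither was called (edgeR adjusted p = 0.156 and 0.133). The third, AGP19 (AT1G68725), was left out by the filter, with 8, 11, 6 and 10 counts in WT and 29, 97, 28 and 9 in DLK2-OE1. Its 3 highest libraries were DLK2-OE1 replicates 1 to 3, and replicate 4 lay within the WT range. Like AGP4 and AGP26, it overlaps an opposite-strand gene with no row in the count tables. With at least 10 counts in 4 libraries as the filter AGP19 was tested and not called (log2 fold change 2.07, SE 0.59, edgeR adjusted p = 0.0747). DESeq2 called AGP19 (adjusted p = 0.0141), in a fit that called 12.4% of all genes. So did edgeR without DLK2-OE1 replicate 4 (0.0214), where 11.9% of all genes were called. That omission removes the DLK2-OE1 library within the WT range, so its call adds nothing to the counts.

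Of the 7 AG peptides tested 1 was called, and their log2 fold changes ran in both directions, from -0.65 to 3.90, around a median of 0.08. AGP22 was almost absent from WT, with 0, 0, 1 and 3 counts, and had 11, 26, 15 and 17 counts in DLK2-OE1. All 4 DLK2-OE1 libraries were above all WT libraries, though at no more than 1.12 CPM. The gene passed the filter on low counts only through DLK2-OE1, where it is high, so it had to differ once tested, and the call adds nothing to its counts. The edgeR adjusted p was 0.0277, and its fitted log2 fold change of 3.90 (SE 0.69) depends on the prior count. Without DLK2-OE1 replicates 1 and 2 the log2 fold change was 3.94 and the adjusted p 0.0874.

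AGP15 had 483, 434, 414 and 307 CPM in WT and 242, 204, 310 and 292 CPM in DLK2-OE1. The genotypes overlapped only through WT replicate 4, which lay just below DLK2-OE1 replicate 3. The log2 fold change of AGP15 was -0.65 (SE 0.18, edgeR adjusted p = 0.0714), and it was called lower by DESeq2 (adjusted p = 0.00869).

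AGP16, by contrast, had 145, 156, 155 and 155 CPM in WT and 162, 157, 206 and 232 CPM in DLK2-OE1. The genotypes did not overlap, but the gap was narrow, and here replicates 3 and 4 were the high ones. The log2 fold change of AGP16 was 0.31 (SE 0.14, edgeR adjusted p = 0.194). AGP16 overlaps AT2G46320 on the opposite strand, whose row had 129 to 204 counts per library.

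AGP24 (AT5G40730) had 13, 0, 6 and 13 counts in WT and 39, 35, 17 and 12 in DLK2-OE1. Its libraries overlapped, with the highest counts in DLK2-OE1 replicates 1 and 2. The log2 fold change was 1.56 (SE 0.71, edgeR adjusted p = 0.199), and 0.91 without those replicates.

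AGP12, AGP20 (AT3G61640) and AGP21 had log2 fold changes of -0.08, 0.08 and -0.07, with edgeR adjusted p from 0.738 to 0.885. Their WT and DLK2-OE1 means differed by less than the SD in either genotype. AGP20, the closest relative of AGP16 at 86.5% protein identity, had 16.9 ± 2.4 CPM in WT and 17.9 ± 2.04 CPM in DLK2-OE1 (SD, n = 4 each).

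AGP13 (AT4G26320) and AGP14 (AT5G56540), a pair 73.3% identical in protein, were left out by the filter. AGP13 had 0, 0, 0 and 1 counts in WT and 17, 35, 4 and 15 in DLK2-OE1. All DLK2-OE1 libraries were above all WT libraries, and with no filter it was called (edgeR adjusted p = 0.0262). AGP14 had 0, 2, 1 and 3 counts in WT and 14, 22, 2 and 3 in DLK2-OE1, so DLK2-OE1 replicates 3 and 4 had no more counts than WT replicate 4.

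Of the nonclassical AGPs, AGP31 is a histidine-rich, vascular cell wall protein. It had 2.71, 13.0, 1.89 and 5.31 CPM in WT and 94.5, 136, 22.8 and 13.7 CPM in DLK2-OE1. The genotypes did not overlap, but DLK2-OE1 replicate 4 lay only 1.05-fold above WT replicate 2, while replicates 1 and 2 stood far above. Its log2 fold change of 3.53 (SE 0.84) had an edgeR adjusted p of 0.0524. It was 1.67 without DLK2-OE1 replicates 1 and 2 (adjusted p = 0.393). AGP31 was called without replicate 3 (0.0367), without replicate 4 (0.0193) and by DESeq2 (0.00225). Those settings called 7.47%, 11.9% and 12.4% of all genes, against 3.69% in the main fit. Replicates 3 and 4 were the DLK2-OE1 libraries nearest to WT, so leaving out either one widens the difference. Of the 1399 AGP31 transcript stretches of 50 bases, 34 occur more than once in the genome, so a small part of its reads may be placed ambiguously.

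**Figure D4:**
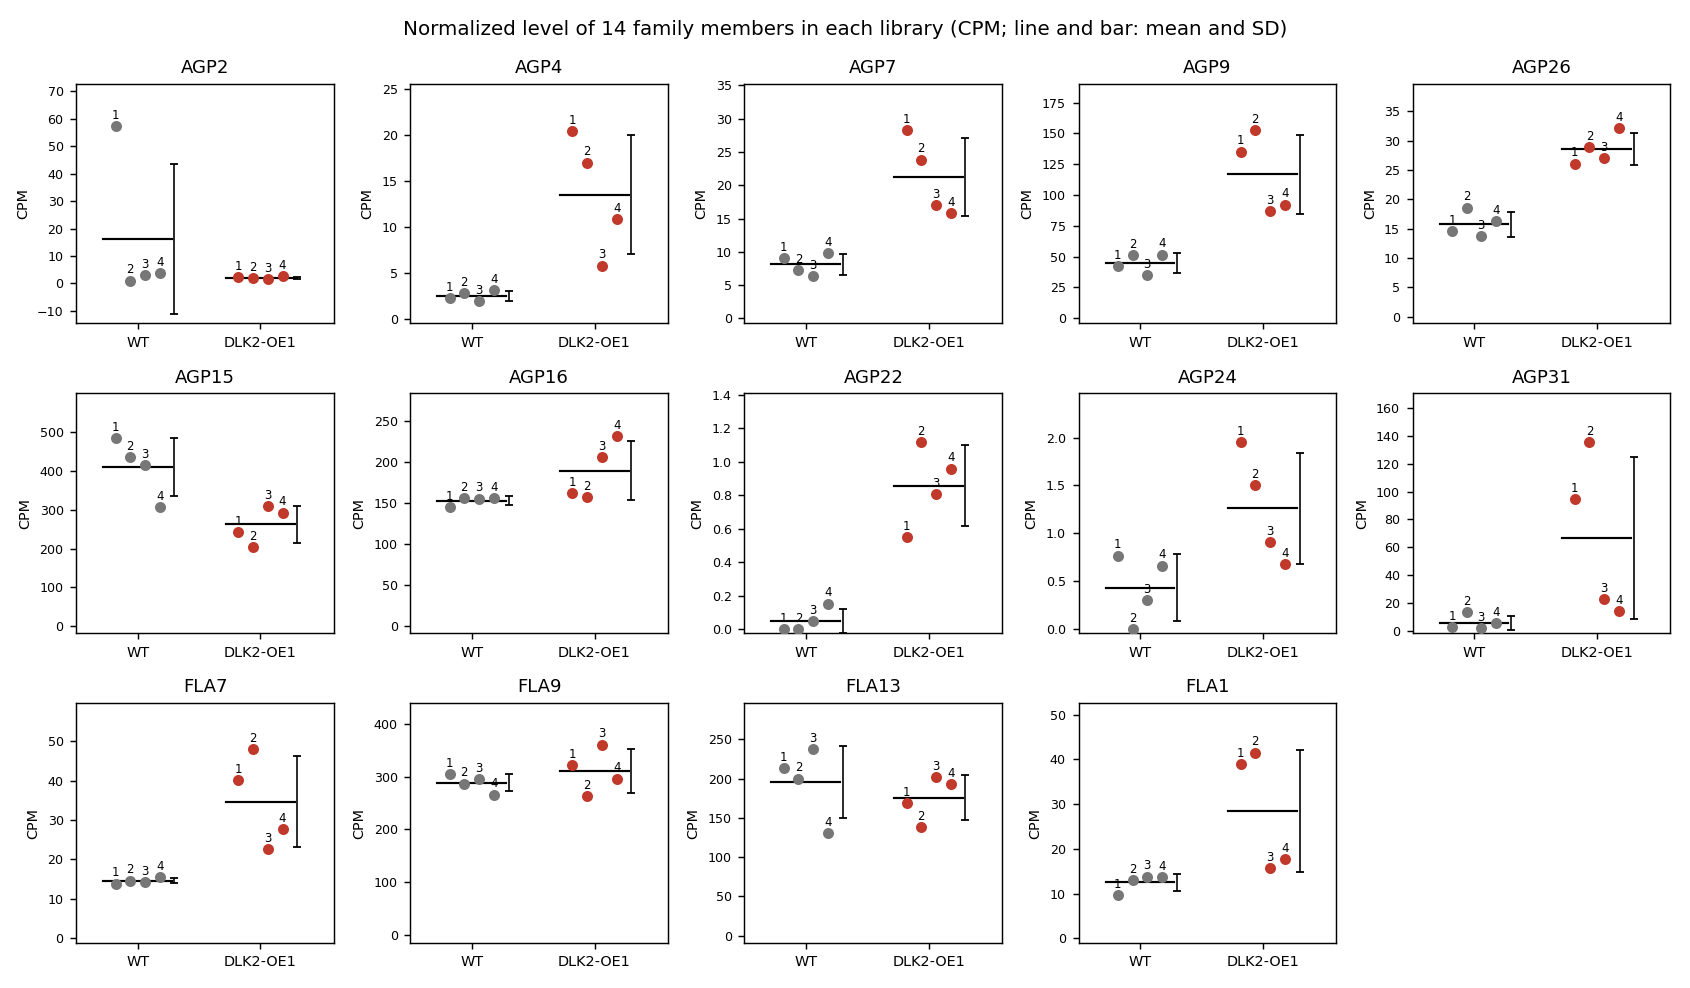
Normalized level (CPM, linear axes that differ between panels) of the 14 members given in full, in each of 4 WT libraries (grey) and 4 DLK2-OE1 libraries (red); digits give the replicate, the black line the mean and the bar its SD. In AGP4, AGP7, AGP9, AGP31, FLA7 and FLA1, DLK2-OE1 replicates 1 and 2 are the highest libraries, while in AGP26 all 4 DLK2-OE1 libraries lie between 26.1 and 32.2 CPM.

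FLAs were grouped by domain content into groups A to D. In group A, whose members have a single fasciclin domain, FLA7 was the only called FLA, with 13.9, 14.6, 14.3 and 15.5 CPM in WT and 40.2, 48.0, 22.6 and 27.7 CPM in DLK2-OE1. The WT libraries were tightly grouped, and all DLK2-OE1 libraries lay above them. For FLA7 the log2 fold change was 1.25 (SE 0.22, edgeR adjusted p = 0.0267), and 0.80 without DLK2-OE1 replicates 1 and 2, still past the threshold (adjusted p = 0.0469).

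FLA9 and FLA13, 77.6% identical in protein, were the highest FLAs and did not follow FLA7. FLA9 had 305, 287, 296 and 266 CPM in WT and 323, 263, 361 and 297 CPM in DLK2-OE1. FLA13 had 213, 200, 237 and 131 CPM in WT and 169, 138, 202 and 193 CPM in DLK2-OE1. Both overlapped between genotypes, at log2 fold changes of 0.11 (SE 0.12) and -0.15 (SE 0.20) and edgeR adjusted p of 0.613 and 0.644.

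All 4 members of group B were tested and none was called: FLA15 (AT3G52370), FLA16 (AT2G35860), FLA17 (AT5G06390) and FLA18 had log2 fold changes of 0.15, 0.22, 0.22 and 0.09, at edgeR adjusted p from 0.262 to 0.749. By DESeq2 and limma-voom 0 of these 4 were called as well, and without DLK2-OE1 replicates 1 and 2 FLA15 and FLA16 had log2 fold changes of -0.39 and -0.06. FLA16, known for its part in stem wall mechanics, also overlaps an opposite-strand gene without a row, as does AGP21.

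In group C, FLA1 (AT5G55730), known from shoot regeneration in culture, had 9.61, 12.9, 13.8 and 13.7 CPM in WT and 39.0, 41.5, 15.6 and 17.8 CPM in DLK2-OE1. The genotypes did not overlap, and replicates 1 and 2 stood well above replicates 3 and 4. For FLA1 the log2 fold change was 1.19 (SE 0.32, edgeR adjusted p = 0.0655), falling to 0.43 without DLK2-OE1 replicates 1 and 2 (adjusted p = 0.275). It was called without replicate 3 (0.0315), without replicate 4 (0.0285) and by DESeq2 (0.00597). Those settings called 7.47%, 11.9% and 12.4% of all genes, against 3.69% in the main fit. The 2 omissions each remove a DLK2-OE1 library near WT, which widens the difference.

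FLA2 had 111 ± 14.2 CPM in WT and 149 ± 13.4 CPM in DLK2-OE1 (SD, n = 4 each), with no overlap, a log2 fold change of 0.42 (SE 0.12) and an edgeR adjusted p of 0.0751. DESeq2 and both fits on log2 FPKM called it. FLA8 (AT2G45470) had 97.1 ± 7.9 and 126 ± 23.6 CPM (SD, n = 4 each), with overlap and an edgeR adjusted p of 0.136.

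FLA10 (AT3G60900), 82.9% identical to FLA8 in protein, was left out by the filter with 5, 11, 4 and 6 counts in WT and 57, 118, 15 and 4 in DLK2-OE1. DLK2-OE1 replicates 1 to 3 lay above every WT library, and replicate 4 lay within the WT range. FLA8 and FLA10 share 4 stretches of 50 bases, so a few reads of the far more abundant FLA8 could have been assigned to FLA10. FLA3 (AT2G24450), known from pollen, had 0, 0, 3 and 0 counts in WT and 0, 0, 0 and 1 in DLK2-OE1.

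FLA4 (AT3G46550), known as SOS5 for its salt-sensitive root phenotype and the only member of group D, had 23.0, 20.2, 19.4 and 16.1 CPM in WT and 22.1, 22.5, 17.0 and 19.2 CPM in DLK2-OE1. The genotypes overlapped almost fully, and the log2 fold change was 0.04 (SE 0.13, edgeR adjusted p = 0.877). The receptor kinases FEI1 and FEI2, which act with FLA4 in the root, had log2 fold changes of -0.05 and 0.00.

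The machinery that modifies these proteins was looked at next to them. Of 30 listed genes for proline hydroxylation and AGP glycosylation, GPI anchor assembly and the FEI kinases, 27 were tested, and 0 were called by edgeR, with 1 higher and 2 lower at an unadjusted p under 0.05. Over all genes 3.69% were called and 26.3% had an unadjusted p under 0.05. The median log2 fold change of these 27 was 0.03 and the adjusted p ran from 0.113 to 0.994. DESeq2 called 1 of them, GALT31A (AT1G32930), a galactosyltransferase gene for arabinogalactan chains, and limma-voom 0. GALT31A had 20, 53, 31 and 51 counts in WT and 129, 227, 49 and 42 in DLK2-OE1, and on CPM replicate 3, at 2.63, was level with the highest WT library, at 2.60, with replicate 4 below it. Its log2 fold change was 1.42 (SE 0.49, edgeR adjusted p = 0.113), or 0.34 without replicates 1 and 2. The 5 GPI anchor genes lay between -0.02 and 0.16.

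Family genes outside the 37 included FLA11 (AT5G03170) and FLA12 (AT5G60490), FLAs of secondary walls in stems. Both were called, at log2 fold changes of 2.28 (SE 0.50, edgeR adjusted p = 0.0449) and 3.79 (SE 0.60, 0.0207), and at 1.52 and 3.03 without DLK2-OE1 replicates 1 and 2 (adjusted p = 0.142 and 0.117). AGP25 (AT5G18690), AGP27 (AT3G06360) and FLA5 (AT4G31370) had log2 fold changes of 1.17, 1.62 and -1.17 and were not called (adjusted p = 0.0502, 0.122 and 0.164). The remaining 7, AGP6 (AT5G14380), AGP11 (AT3G01700), AGP23 (AT3G57690), FLA14 (AT3G12660), FLA20 (AT5G40940), FLA21 (AT5G06920) and AT1G15190, were left out by the filter with at most 12 counts in any library. AGP6, AGP11 and AGP23 are known from pollen.

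Of the 6 called members, AGP4, AGP7, AGP9 and FLA7 were highest in DLK2-OE1 replicates 1 and 2, while AGP22 was lowest among the DLK2-OE1 libraries in replicate 1 and AGP26 was highest in replicate 4. Relative to the WT mean, the median CPM of the 6 was 3.25-fold and 3.35-fold in DLK2-OE1 replicates 1 and 2 and 2.01-fold and 2.04-fold in replicates 3 and 4. For the 24 tested members not called it was 1.10, 1.05, 1.07 and 1.16 in replicates 1 to 4. The 6 were called on these same libraries, so their distance from the 24 follows from that choice and is only described. The 24 had their highest DLK2-OE1 library in replicates 1 to 4 in 4, 7, 6 and 7 cases.

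Most marker lists for cell types also set DLK2-OE1 replicates 1 and 2 apart from replicates 3 and 4. The summed CPM of 7 xylem markers was 22.2 to 59.5 in WT and 145, 263, 87.4 and 62.7 in DLK2-OE1 replicates 1 to 4, with 3 of 6 tested markers called higher. That of 6 cell cycle markers was 6.07 to 9.39 in WT and 38.9, 48.9, 18.5 and 13.5 in DLK2-OE1, with 4 of 6 called higher. AUR2, among these, passed the filter on low counts only through DLK2-OE1, with 9, 22, 10 and 8 counts in WT. Over all genes 2.12% were called higher, and the lists were chosen with earlier results known, so these calls only describe them. Both lists had their highest DLK2-OE1 libraries in replicates 1 and 2, as AGP4, AGP7, AGP9, FLA7, AGP31 and FLA1 did. So did AGP18, AGP24, FLA4, FLA8, FLA15, FLA16 and FLA17. In AGP3, AGP5, AGP12, AGP15, AGP16, AGP17, AGP21, FLA13 and FLA18 replicates 3 and 4 were the highest instead. The other tested members, the called AGP22 and AGP26 among them, had neither order.

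Of 4 shoot apex markers, KNAT1 and STM were called higher, with 0 counts in 3 WT libraries each, CLV3 was at 0 in all 8 libraries and WUS had at most 1 count. KNAT1 and STM passed the filter on low counts only through DLK2-OE1, where they are high, so their calls add nothing to their counts. The summed CPM of the 4 markers was 0 to 1.08 in WT and 31.0, 50.6, 6.06 and 8.12 in DLK2-OE1 replicates 1 to 4. Mesophyll markers, which define leaf tissue, summed to 44404 to 59468 CPM in WT and 40078, 27313, 44560 and 55405 CPM in DLK2-OE1, lowest in replicates 1 and 2, with 0 of 4 called.

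The epidermis sum was 61.7 to 120 CPM in WT and 197, 265, 115 and 76.0 CPM in DLK2-OE1 replicates 1 to 4, highest in replicates 1 and 2 as well. Of its 2 markers only PDF1 had that order, with 123, 200, 42.5 and 5.42 CPM in DLK2-OE1 and 0, 38.6, 1.79 and 0.051 in WT. ATML1 had 74.7, 64.9, 72.3 and 70.6 CPM in DLK2-OE1, at a log2 fold change of 0.03, and neither was called. Phloem markers summed to 226 to 262 CPM in WT and 164, 108, 225 and 241 CPM in DLK2-OE1. Guard cell markers summed to 104 to 155 CPM in WT and 75.4, 56.7, 92.5 and 123 CPM in DLK2-OE1. KAT1 made up most of that sum, at a mean of 108 CPM in WT and 68.0 in DLK2-OE1. Of the 4 guard cell markers 3 had a negative log2 fold change, and that of FAMA was 0.10. Phloem and guard cell sums were lowest in replicates 1 and 2, and all 3 sums overlapped between genotypes. Flower markers summed to 10.9 to 38.8 CPM in WT and 3.46 to 9.31 CPM in DLK2-OE1. Of the 2 tested, 1 was called lower, SEP3, where 1.58% of all genes were. SEP3 made up most of the sum, at a mean of 23.7 CPM in WT and 4.20 in DLK2-OE1. AG was also lower, at 1.90 and 0.72 CPM. AP1, left out by the filter, had 0, 24, 0 and 1 counts in WT and 16, 32, 8 and 0 in DLK2-OE1. The part of any of these cell types in the members' differences was not tested.

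**Figure D5:**
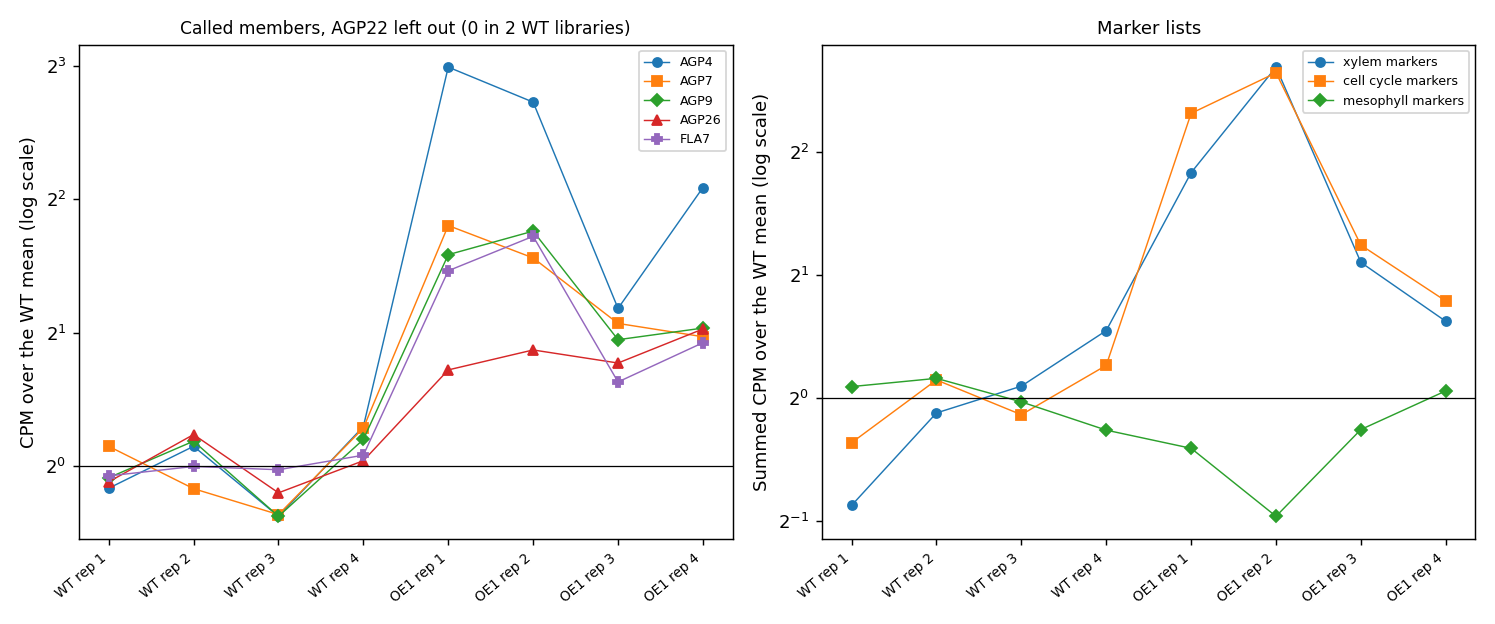
CPM relative to the WT mean, on log scales, in each of the 8 libraries: left, 5 of the 6 called members (AGP22 has 0 counts in 2 WT libraries and is left out); right, the summed CPM of the xylem, cell cycle and mesophyll marker lists. Both marker lists other than mesophyll, and all members shown except AGP26, are higher in DLK2-OE1 replicates 1 and 2 than in replicate 3. Lines join libraries for reading only.

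The calls were close to the threshold, since the smallest adjusted p of any gene was 0.0111 by edgeR. Of the 6 calls, 0 passed without WT replicate 1, WT replicate 3 or DLK2-OE1 replicate 1, 2 without WT replicate 2 (AGP9 and AGP26), and 2 (AGP26 and FLA7) without DLK2-OE1 replicates 1 and 2. Over all genes the first 3 omissions left 13, 0 and 14 calls and the last 60. AGP7, for one, had log2 fold changes of 1.44, 1.29 and 1.22 in the first 3 omissions against 1.39. At an unadjusted p under 0.05 by edgeR, 14, 13 and 10 members were higher and 1, 2 and 1 lower in those first 3 omissions. That was out of 33, 33 and 30 members tested, and the 33 include AGP13, AGP19 and FLA10, which the main filter left out. Over all genes 3921 of 18442, 3599 of 18447 and 3307 of 18244 were past it in either direction.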

How the data were processed

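Polyadenylated RNA from rosette leaves was sequenced in 8 libraries, 4 WT and 4 DLK2-OE1. Per the file headers, the deposited tables hold, for every gene and library, a whole-number count and its FPKM. The submitters' processing notes list, with no role or order, HISAT2, Bowtie2 2.2.8, fastp 0.18.0, RSEM, StringTie 1.3.1, edgeR, DESeq2 and the TAIR10 build. Not given in the sources used here were the strand setting, the annotation release and the nature of the counts, whole reads or rounded estimates.

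The members and gene lists were chosen with earlier results of these data known. Counts were fitted with edgeR 4.0.16 in R 4.3.3 (filterByExpr by genotype, TMM, robust quasi-likelihood F test), with Benjamini-Hochberg adjustment over 18155 genes, a threshold of 0.05 and a common biological coefficient of variation of 0.222. The SE was taken as the log2 fold change over the root of F, and CPM uses TMM library sizes. Levels are compared between genes as FPKM. The procedure was tested on simulated counts.

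Every member is named. Values per library are given for members past the threshold, for other tested members with an absolute log2 fold change of at least 1 and at least 1 CPM, and for the 4 highest in WT. Further per-library values, for the members the filter left out, FLA4, GALT31A and single markers, were added after they were seen. So were the sums without AGP2 or in CPM and the order of levels without DLK2-OE1 replicates 1 and 2.

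The alternatives tried were limma-voom (limma 3.58.1), DESeq2 1.42.0, DESeq2's size factors in edgeR, a filter of 10 counts in 4 libraries or none, and limma-trend on log2(FPKM + 1) and log2(FPKM + 0.1) where at least 4 libraries reached 1 FPKM. A replicate block, leaving out single libraries, and leaving out DLK2-OE1 replicates 1 and 2 together were also tried. Sequences, coordinates and composition came from RefSeq TAIR10.1, with alignments by Biopython 1.88.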

Additional observations from a re-analysis of the deposited data

Results flagged for a closer look

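Among 60 groups of 4 libraries, one per tested member and genotype, 2 had a library far from the other 3 by Dixon's criterion, which chance meets in about 1 of 20 groups. AGP2 stood at 57.3 CPM in WT replicate 1, against 0.982 to 3.67 CPM in the other WT libraries. AGP16 stood at 145 CPM in WT replicate 1, against 155 to 156 CPM in the others.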

How the results depend on the processing

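Against 6 members called higher, where 3.69% of all genes were called, DESeq2 called 12 higher and 1 lower, AGP15, with 1 pathway gene, GALT31A, and 12.4% of all genes. DESeq2 size factors and the filter of 10 counts gave 6, with 3.65% and 3.64% of all genes called. No filter gave 7 (2.95% of all genes), as did the log2 FPKM fits with pseudocounts of 1 (1.72%) and 0.1 (2.03%). With limma-voom it was 5, without AGP4 (1.46% of all genes). Whether replicate numbers pair the libraries is not stated in the labels. Deviations from the genotype mean correlated at -0.0292, 0.0617, 0.123 and -0.0951 between libraries of the same number. Between libraries of different numbers they ran from -0.205 to 0.24, and such values cannot decide on pairing. A fit with a replicate block gave 4 (1.35% of all genes), without AGP22 and FLA7. Leaving out 1 library gave 0 to 10 members higher, 0 lower throughout, and 0 to 1 pathway genes: none higher when WT replicate 1, WT replicate 3 or DLK2-OE1 replicate 1 was omitted, 2 on omitting WT replicate 2, 5 on omitting DLK2-OE1 replicate 2, and 9 and 10 on omitting its replicates 3 and 4. Those omissions called 13, 0, 14, 118, 232, 1368 and 2191 genes in all. Without DLK2-OE1 replicates 1 and 2 it was 2 of 60 genes. The members' median log2 fold change of 0.23 was 0.30 with no filter and by DESeq2, 0.27 with the filter of 10 counts, 0.36 and 0.38 on log2 FPKM with pseudocounts of 1 and 0.1, and 0.20 to 0.36 over single omissions. With fewer low genes removed, no filter and DESeq2 covered 35 members; on log2 FPKM the median of all genes was itself 0.12 to 0.13. The cause of the other shifts was not tested. No called member changed sign, which libraries that do not overlap largely fix. Counting noise limits AGP22, AGP24 and the members left out by the filter.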
